A study of Mus musculus with 9 samples.

Results

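The 10 genes described here are Parp1, Parp2, Parp3, Parp8, Parp9, Parp10, Parp11, Parp12, Parp14 and Dtx3l, taken by symbol from the 55335 genes of the deposited expression table. All 10 were among the 11657 genes that passed the filter on low values (1 FPKM or more in 3 or more of 9 libraries). RNA-seq was done on wild-type bone marrow-derived macrophages (BMDMs). The marrow came from male C57BL/6 mice aged 4 to 6 weeks and was cultured for 5 days with M-CSF, a cytokine that drives progenitors into macrophages. The Control group was kept in medium. The Model group received 1 µg/mL lipopolysaccharide (LPS), a bacterial ligand of the receptor TLR4, and 30 ng/mL interferon-γ (IFN-γ), the cytokine through which lymphocytes activate macrophages. The M+AnxA5 group received both stimuli together with 2 µg/mL recombinant human AnxA5 (Annexin A5), a protein that binds phosphatidylserine. Each group had 3 libraries, and all were collected after 6 hours. The cultures were not sorted before RNA extraction, and no source used here says whether the 3 libraries of a group came from separate mice or cultures, so p-values cover only the variation among these libraries, which may be technical.

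PARP enzymes transfer ADP-ribose from NAD to proteins. Parp1 and Parp2, which are activated by DNA breaks, build chains of ADP-ribose (PARylation), whereas most other members add a single unit (MARylation), and several of these are known as interferon-stimulated genes in mouse and human cells. Dtx3l is a ubiquitin ligase of the deltex family. Its protein forms a complex with Parp9, and the pair is known in human cells for its part in the interferon response.

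Expression is given as FPKM, the fragments assigned to a gene per kilobase of transcript, scaled to the mapped fragments of the library, a scale on which genes of different length can be compared. Judged from the smallest steps between low values, libraries held about 25.7M to 35.5M fragments each (M for mega). A single fragment on 1 kb of transcript then corresponds to 0.0282 to 0.0389 FPKM. Within a group, libraries correlated with r between 0.985 and 0.992 across genes, which are not independent replicates. Library 2 of each group held the most ribosomal fragments, up to 7.47% of the summed FPKM in Control replicate 2 and as little as 0.530% in M+AnxA5 replicate 1. All 8 macrophage markers were expressed in every library, with a summed level of 13720 to 14794 FPKM in Control, 7676 to 8598 in Model and 7001 to 7860 in M+AnxA5. This sum was mostly Lyz2 (mean 12129 FPKM in Control and 6388 in Model). Single markers went both ways, with higher means in Model than in Control for Adgre1 and Mertk and lower means for the others. The lower ones included Csf1r (340 and 164 FPKM in Control and Model), Fcgr3 (363 and 222 FPKM) and Fcgr2b (31.1 and 22.0 FPKM). Adgre1 had means of 329, 606 and 475 FPKM in Control, Model and M+AnxA5, Mertk 47.5, 142 and 142 FPKM, and Cd68 850.3, 377 and 484 FPKM. The 3 T cell, 3 B cell and 3 NK cell markers stayed below 1 FPKM in every library. Of the 4 fibroblast markers, 3 exceeded 1 FPKM in every library, with a sum of 93.3 to 156 FPKM in Control, 70.5 to 108 in Model and 60.5 to 108 in M+AnxA5. Of the 4 neutrophil markers, Camp exceeded 1 FPKM throughout and Ly6g did not reach it in any library, and the list summed to 13.5 to 17.9 FPKM in Control, 10.3 to 13.7 in Model and 11.7 to 14.2 in M+AnxA5. Its members differed in direction, since Camp was at 5.10 to 5.97 FPKM in Control and 10.04 to 13.2 FPKM in Model, whereas Mpo was at 3.30 to 5.65 FPKM and 0.0827 to 0.165 FPKM, and Elane at 5.08 to 6.998 FPKM and 0 to 0.269 FPKM. Of the 3 dendritic cell markers, Flt3 and Zbtb46 stayed below 1 FPKM, while the sum, nearly all Xcr1, was 0.0970 to 0.219 FPKM in Control, 4.62 to 5.34 in Model and 3.01 to 3.44 in M+AnxA5. The part of such cells in the results was not tested. In bulk RNA, fewer cells of a type and less RNA per cell cannot be told apart.

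The genes lie on 7 chromosomes of the GRCm38 build, and 3 of them are close neighbours on chromosome 16. Parp14 (chr16:35832874-35871544) and Dtx3l (chr16:35926511-35939151) are on the minus strand and Parp9 (chr16:35938470-35972605) is on the plus strand. Dtx3l and Parp9 start head to head and overlap by 682 bases, of which 458 are exonic in both annotations. Promoter windows of 300 bases (250 before and 50 after an annotated start) were taken from RefSeq on GRCm38.p6, where 7 of the 10 genes had a window and none was listed for Parp9, Parp10 and Parp14. The windows of 4 genes are shown 5′ to 3′ on the gene's strand, since they belong to genes that moved in opposite directions under the stimuli: Dtx3l (chr16:35938978-35939277, minus strand), Parp11 (chr6:127446590-127446889, plus strand), Parp12 (chr6:39118300-39118599, minus strand) and Parp1 (chr1:180568641-180568940, plus strand). In the Dtx3l window, capitals mark the 50 bases that face the first exon of a Parp9 transcript on the other strand. In the Parp11 window, capitals mark a stretch of 16 bases with matches to 2 interferon motifs.
Dtx3l: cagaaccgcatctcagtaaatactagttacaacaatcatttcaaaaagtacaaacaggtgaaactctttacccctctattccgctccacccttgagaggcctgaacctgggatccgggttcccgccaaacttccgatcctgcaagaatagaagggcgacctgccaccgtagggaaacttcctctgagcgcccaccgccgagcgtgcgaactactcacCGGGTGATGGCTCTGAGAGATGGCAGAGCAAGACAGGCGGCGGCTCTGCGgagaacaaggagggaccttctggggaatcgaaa
Parp11: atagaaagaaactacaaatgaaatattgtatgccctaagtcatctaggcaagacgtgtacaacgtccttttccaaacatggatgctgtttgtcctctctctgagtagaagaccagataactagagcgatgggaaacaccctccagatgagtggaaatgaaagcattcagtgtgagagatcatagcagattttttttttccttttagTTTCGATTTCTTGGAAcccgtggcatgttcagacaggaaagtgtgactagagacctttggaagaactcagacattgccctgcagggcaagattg
Parp12: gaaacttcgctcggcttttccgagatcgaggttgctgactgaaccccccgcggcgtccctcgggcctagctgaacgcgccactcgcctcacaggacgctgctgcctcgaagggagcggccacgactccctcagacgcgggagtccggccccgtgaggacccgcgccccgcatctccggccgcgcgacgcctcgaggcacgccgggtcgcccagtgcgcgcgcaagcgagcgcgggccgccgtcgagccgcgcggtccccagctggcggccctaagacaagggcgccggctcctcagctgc
Parp1: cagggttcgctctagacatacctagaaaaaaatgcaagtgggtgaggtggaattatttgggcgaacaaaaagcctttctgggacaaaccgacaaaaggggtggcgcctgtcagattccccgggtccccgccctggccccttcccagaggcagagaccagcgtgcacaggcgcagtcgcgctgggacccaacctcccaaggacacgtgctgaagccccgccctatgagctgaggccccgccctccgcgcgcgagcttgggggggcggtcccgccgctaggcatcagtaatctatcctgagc
The motifs searched on both strands were the core of the interferon-stimulated response element (ISRE, GAAANNGAAA) and of the IFN-γ-activated site (GAS, TTCNNNGAA). Parp11 was the 1 gene of the 7 with a match, an ISRE core on the minus strand at bases 207 to 216 of the window and a GAS core at bases 214 to 222, which overlaps it. A further Parp11 window of the table, at a start downstream (chr6:127453377-127453676, plus strand, GC content 59.0%), held neither motif. Over all 32851 windows of the table, 3.44% held the ISRE core and 8.30% the GAS core. The GC content was 42.0% in this Parp11 window, 54.3% in the Dtx3l window, 62.0% in the Parp1 window and 73.7% in the Parp12 window, against a median of 52.7% over all windows.

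Parp14 was the highest of the 10 genes after stimulation and had the largest change among them. This MARylating enzyme carries macrodomains, which bind ADP-ribose, and is known in mouse lymphocytes as a partner of STAT6. Its level was 16.1, 14.8 and 16.5 FPKM in the Control libraries, 205, 199 and 203 FPKM in the Model libraries and 190, 194 and 185 FPKM in the M+AnxA5 libraries. All Control libraries lay far below all others, and the mean was 12.8-fold higher in Model than in Control. On the log2(FPKM + 1) scale used for all tests, where low genes appear to change less than in FPKM, Parp14 rose by 3.60 (SE 0.05, n = 3 per group, limma with Benjamini-Hochberg adjustment, adjusted p = 3.04e-11).

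Dtx3l and Parp9, the ubiquitin ligase and its partner, rose as well. Dtx3l was at 7.17, 9.89 and 10.03 FPKM in Control, 73.2, 70.4 and 70.4 FPKM in Model and 65.8, 64.4 and 65.6 FPKM in M+AnxA5, a 7.90-fold difference between the Control and Model means. Control replicate 1 was the lowest library by a margin, and no library of the stimulated groups came near the Control range. Parp9, which has macrodomains and starts head to head with Dtx3l, was at 6.40, 7.78 and 7.64 FPKM in Control, 39.7, 40.8 and 35.7 FPKM in Model and 39.2, 38.2 and 37.5 FPKM in M+AnxA5, and was 5.32-fold higher in Model than in Control. Control replicate 1 was again the lowest library. The log2 fold change in limma was 2.86 (SE 0.10, adjusted p = 1.45e-08) for Dtx3l and 2.27 (SE 0.07, adjusted p = 8.86e-09) for Parp9. The ratio of Dtx3l to Parp9 FPKM was 1.12, 1.27 and 1.31 in Control, 1.84, 1.73 and 1.97 in Model and 1.68, 1.69 and 1.75 in M+AnxA5, so the Control ratios lay below all others, whereas Model and M+AnxA5 overlapped. Both genes share exonic bases on opposite strands, and although the libraries mark the strand, the strand setting of the counting is not given in the sources used here.

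**Figure D1:**
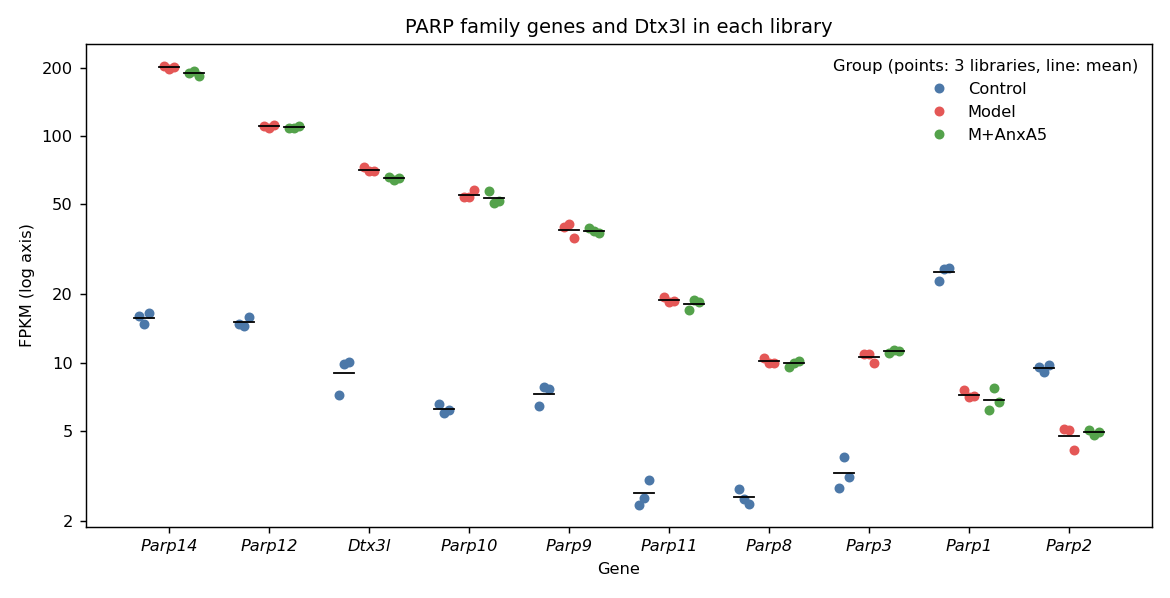
FPKM (log axis) of the 10 genes in each library, with points for the 3 libraries of Control, Model and M+AnxA5 and a line at each mean. Parp14 moves from 15.8 FPKM in Control to 202 FPKM in Model, Parp1 from 25.0 to 7.23 FPKM, and the M+AnxA5 points lie beside the Model points for each gene.

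Parp12, Parp10 and Parp11 are MARylating enzymes known as interferon-stimulated genes. Parp12, a zinc finger protein that binds RNA, was at 14.8, 14.5 and 15.98 FPKM in Control, 111, 109 and 112 FPKM in Model and 109, 109 and 111 FPKM in M+AnxA5. Parp10, which was first described as a MYC-interacting protein, was at 6.55, 5.99 and 6.20 FPKM in Control, 53.88, 54.04 and 57.7 FPKM in Model and 57.1, 50.8 and 51.8 FPKM in M+AnxA5. Parp11, which is found at the nuclear envelope, was at 2.35, 2.53 and 3.04 FPKM in Control, 19.4, 18.5 and 18.8 FPKM in Model and 17.1, 18.8 and 18.6 FPKM in M+AnxA5. In each of these genes the Control libraries were separated from all stimulated libraries, and the Model and M+AnxA5 ranges overlapped. The mean in Model was 8.84-fold that in Control for Parp10, 7.32-fold for Parp12 and 7.15-fold for Parp11. The log2 fold changes were 2.96 (SE 0.06, adjusted p = 3.02e-10) for Parp10, 2.79 (SE 0.04, adjusted p = 7.20e-11) for Parp12 and 2.45 (SE 0.07, adjusted p = 4.47e-09) for Parp11 in limma. Parp10 shares 205 exonic bases with Plec on the same strand, so its level is uncertain to that extent.

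Parp8 and Parp3 were low in Control and moderately expressed after stimulation. Parp8, a little-studied MARylating enzyme, was at 2.76, 2.49 and 2.37 FPKM in Control, 10.5, 9.99 and 9.94 FPKM in Model and 9.59, 9.98 and 10.2 FPKM in M+AnxA5. Parp3, which responds to DNA double-strand breaks, was at 2.80, 3.84 and 3.12 FPKM in Control, 10.9, 10.9 and 9.97 FPKM in Model and 11.01, 11.3 and 11.2 FPKM in M+AnxA5. Control lay below every stimulated library in both genes. Parp8 was 3.99-fold higher in Model (log2 fold change 1.66, SE 0.06, adjusted p = 9.70e-09, limma). Parp3 was 3.26-fold higher (log2 fold change 1.45, SE 0.08, adjusted p = 3.56e-07, limma), and among the 3 DNA break-dependent enzymes of the list it was the only one to rise.

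Parp1 and Parp2, the PARylating enzymes of the DNA damage response, fell. Parp1 was at 23.0, 26.0 and 26.1 FPKM in Control, 7.54, 7.05 and 7.10 FPKM in Model and 6.15, 7.69 and 6.68 FPKM in M+AnxA5. Its Control mean was 3.46-fold the Model mean, with no overlap (log2 fold change -1.66, SE 0.08, adjusted p = 9.51e-08, limma). Parp2 was at 9.54, 9.07 and 9.72 FPKM in Control, 5.10, 5.06 and 4.11 FPKM in Model and 5.03, 4.78 and 4.96 FPKM in M+AnxA5. Its Control mean was 1.99-fold the Model mean, again with no overlap (log2 fold change -0.86, SE 0.07, adjusted p = 4.38e-06, limma). Most genes moved down between these groups, with a median log2 fold change of -0.45 over all genes tested. Relative to that median, the log2 change was -1.21 for Parp1 and -0.42 for Parp2, and it ranged from 1.899 for Parp3 to 4.04 for Parp14 among the genes that rose. After quantile normalization, which brought the median of all genes to -0.10, the log2 fold change was -1.51 for Parp1 and -0.50 for Parp2, and both were still called lower.

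Counted together, 8 of the 10 genes were called higher and 2 lower in Model against Control (fold change over 1.2 and adjusted p under 0.05). Over all genes tested 16.5% were called higher and 60.3% lower. With upper-quartile scaling 67.8% and with quantile normalization 58.8% of all calls were lower calls, against 78.5% with FPKM as deposited. All 10 genes showed no overlap between Control and Model libraries, which 83.8% of all genes tested did. Their median log2 fold change was 2.36. The 10 genes were chosen with earlier results of these data known, so these counts do not describe PARP genes in general. Of the 7 other PARP genes tested, 2 were called higher, 3 lower and 2 neither. In this comparison the directions and calls of the 10 genes were the same under all 22 alternative settings.

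The order of the genes by FPKM changed with stimulation. In Control, Parp1 led with 25.0 ± 1.72 FPKM (SD, n = 3), above Parp14 with 15.8 ± 0.904 and Parp12 with 15.1 ± 0.771 FPKM, which overlapped. Parp2, Dtx3l, Parp9 and Parp10 followed with means from 9.44 to 6.25 FPKM, each overlapping the next, and Parp3, Parp11 and Parp8 closed the order with means from 3.26 to 2.54 FPKM, also overlapping. In Model the order was Parp14 (202 ± 3.09 FPKM), Parp12 (111 ± 1.42), Dtx3l (71.3 ± 1.59), Parp10 (55.2 ± 2.16), Parp9 (38.7 ± 2.70), Parp11 (18.9 ± 0.468), Parp3 (10.6 ± 0.554), Parp8 (10.2 ± 0.328), Parp1 (7.23 ± 0.268) and Parp2 (4.76 ± 0.563). Only Parp3 and Parp8 overlapped among neighbours in this order. The order in M+AnxA5 was that in Model, with no overlap between neighbours. Parp14 therefore went from 16.4% to 38.1% and 37.4% of the summed FPKM of the 10 genes in Control, Model and M+AnxA5, and Parp1 from 26.0% to 1.37% and 1.35%. Among all genes tested, the level of Parp14 moved from the 77.2 to the 98.2 percentile between Control and Model, and that of Parp1 from the 85.9 to the 63.8 percentile.

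**Figure D2:**
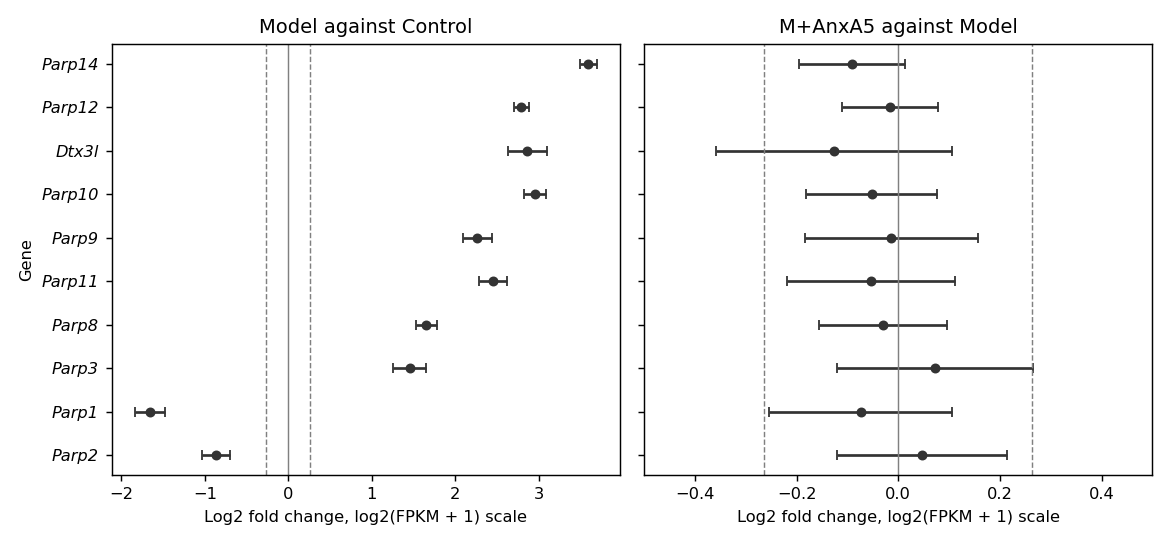
Log2 fold changes of the 10 genes on the log2(FPKM + 1) scale with 95% confidence intervals from limma, for Model against Control (left) and M+AnxA5 against Model (right, on a narrower axis). Dashed lines mark a fold change of 1.2 in either direction. On the left 8 genes lie to the right of the lines and Parp1 and Parp2 to the left, whereas on the right every interval includes 0.

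The second comparison asked whether AnxA5 changed the response to the stimuli. None of the 10 genes was called higher or lower in M+AnxA5 against Model by limma, none had an unadjusted p under 0.05, and 2.76% of all genes tested were called. The mean FPKM with AnxA5 was between 91.5% (Dtx3l) and 105.6% (Parp3) of the Model mean. On the log2(FPKM + 1) scale, the 95% confidence interval lay within a fold change of 1.2 in either direction for 8 of the 10 genes. The exceptions were Dtx3l and Parp3. Low genes appear to change less on this scale, and Parp1 was close to the bound of 0.26, with an interval from -0.25 to 0.11. For Parp12 the log2 fold change was -0.02 with an interval from -0.11 to 0.08, and for Parp9 -0.01 with an interval from -0.18 to 0.16.

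In 3 of the 10 genes the M+AnxA5 libraries did not overlap the Model libraries, as in 24.8% of all genes tested. Parp14 was lower in all 3 M+AnxA5 libraries than in any Model library and stood at 93.9% of the Model mean (log2 fold change -0.09, interval -0.19 to 0.01, adjusted p = 0.360 in limma, 0.2498 to 0.612 over the alternatives). Dtx3l was likewise lower in every library, at 91.5% of the Model mean (log2 fold change -0.13, interval -0.36 to 0.11, adjusted p = 0.587, 0.0958 to 0.821 over the alternatives). Parp3 was higher in every library (log2 fold change 0.07, interval -0.12 to 0.27, adjusted p = 0.729, 0.505 to 0.924 over the alternatives). Differences below 0 were found for 8 of the 10 genes, beside 6544 of 11657 over all genes tested. Of these 8, Parp9 changed sign under 4 of 22 alternative settings. The median log2 fold change was -0.04 beside -0.02 over all genes tested. None of these differences passed the test.

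The summed FPKM of Parp9, Parp10, Parp11, Parp12, Parp14 and Dtx3l was 53.4, 55.5 and 59.4 in the Control libraries, 502, 491 and 497 in the Model libraries and 478, 475 and 469 in the M+AnxA5 libraries. The M+AnxA5 sums all lay below the Model sums and averaged 95.4% of them, or 94.9% when the libraries were first scaled to TPM. The genes did not contribute equally. Parp14 was at 93.9% and Dtx3l at 91.5% of the Model mean, Parp10 at 96.5%, Parp11 at 96.2%, and Parp9 and Parp12 at 98.9%. Of all genes tested, 24.8% showed no overlap between these groups, in either direction. No p is given, because 3 against 3 libraries cannot go below 0.10 in an exact two-sided permutation test and because the genes were chosen with results in view. Divided by the summed FPKM of Parp1 and Parp2, the sum was 1.63 ± 0.04 in Control (SD, n = 3), 41.5 ± 2.45 in Model and 40.4 ± 2.32 in M+AnxA5, and the last 2 groups overlapped.

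Against Control, the M+AnxA5 libraries gave the same calls as the Model libraries, 8 genes higher and 2 lower, where 16.4% of all genes tested were called higher and 61.1% lower. Both comparisons use the same Control libraries. The log2 fold change of Parp14 was 3.60 in Model and 3.51 in M+AnxA5 against Control, that of Dtx3l 2.86 and 2.74, that of Parp12 2.79 and 2.78, and that of Parp1 -1.66 and -1.73.

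The neighbourhood of Parp14, Dtx3l and Parp9 was then examined gene by gene, chosen by position. Kpna1, an importin next to Parp9, had a log2 fold change of -0.11 in Model against Control (4.34 and 3.95 FPKM in Control and Model, adjusted p = 0.747, limma). Beyond it, Wdr5b was lower (-0.74, adjusted p = 7.41e-05) and Fam162a higher (1.29, adjusted p = 1.45e-05). On the other side of Parp14, Dirc2 was lower (-1.03, adjusted p = 1.65e-07), and Hspbap1 between them was not tested, with 0.350 FPKM in Control and 0.570 FPKM in Model. Among the tested genes of this stretch, those called higher were Parp14, Dtx3l, Parp9 and Fam162a. Over all genes tested 16.5% were called higher and 60.3% lower. The missing call of Kpna1 does not show that its level was unchanged.

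**Figure D3:**
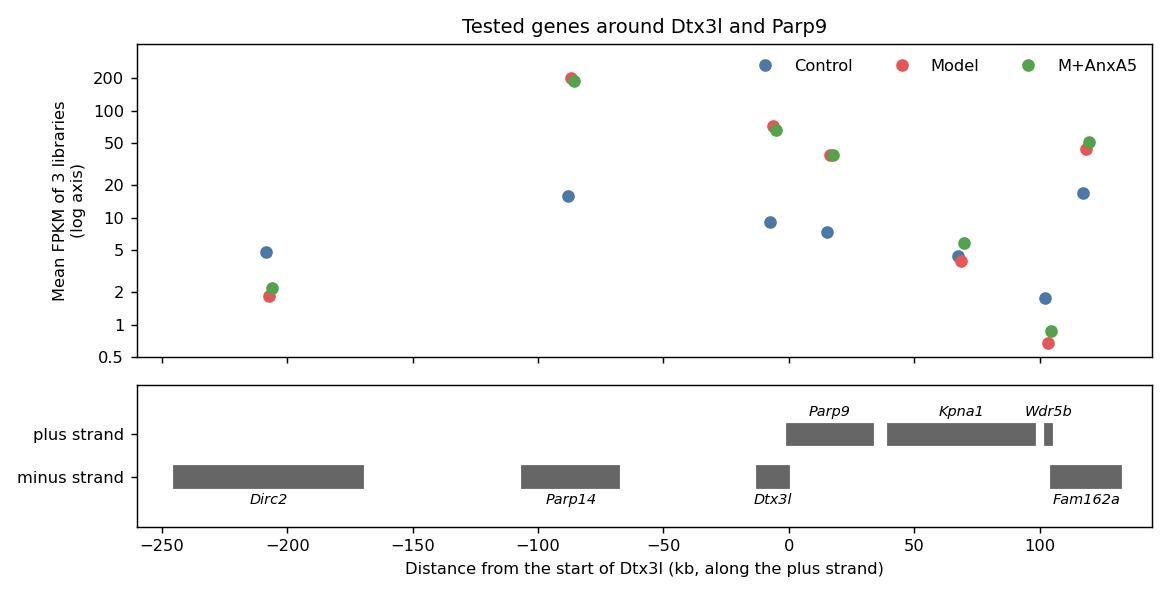
Tested genes around Dtx3l and Parp9 on chromosome 16, drawn to scale by distance in kb from the start of Dtx3l on both strands (lower panel), with the mean FPKM of 3 libraries of Control, Model and M+AnxA5 on a log axis above each gene. Parp14, Dtx3l and Parp9 move from 15.8, 9.03 and 7.27 FPKM in Control to 202, 71.3 and 38.7 FPKM in Model, whereas Kpna1 is at 4.34, 3.95 and 5.81 FPKM in Control, Model and M+AnxA5.

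The genes whose pattern over the 9 libraries was most like that of each member were taken by the root mean square (RMS) difference of centred log2(FPKM + 1) values. They were Nlrc5 (0.04), Rnf213 (0.05) and Herc6 (0.06) for Parp14, and Stat2 (0.04), Casp4 (0.05) and Psme2 (0.05) for Parp12. For Dtx3l they were Themis2 (0.08), Trim30a (0.09) and Nfkbia (0.09), and for Parp9 Birc3 (0.05), Znfx1 (0.07) and Psmb10 (0.08). Parp10 was nearest to H2-T22, Bst1 and Slc31a2, and Parp11 to Mov10, Oas1a and Dhx58. Parp8 was nearest to Plek, Naa25 and Ogfr, and Parp3 to the predicted gene Gm10053, Wars and Dbnl. The genes nearest to Parp1 were Slc39a10, Nup85 and Acsf2, and those nearest to Parp2 were the predicted gene Gm14414, Rpl8 and Pld4. No member was among the nearest 3 genes of another member. The values are descriptions over libraries that share their groups. They follow mainly the size of the step between Control and the stimulated groups. On this scale low genes appear to change less, so genes with unlike FPKM folds can be listed together. Acsf2, for example, had means of 4.79 and 0.789 FPKM in Control and Model, and Parp1 25.0 and 7.23 FPKM.

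The rest of the ADP-ribosylation system was followed through 53 further genes written down from general knowledge, of which 46 were tested. In Model against Control 17 of the 46 were called higher and 22 lower, beside 16.5% and 60.3% of all genes tested. Their median log2 fold change was -0.13, beside -0.45 over all genes tested. Other PARP genes were mixed. Tiparp, a MARylating enzyme induced by the aryl hydrocarbon receptor, rose from 12.1, 9.92 and 8.51 FPKM to 42.1, 44.1 and 47.6 FPKM (log2 fold change 2.04, adjusted p = 1.56e-07, limma). Zc3hav1, the zinc finger antiviral protein ZAP, which has an inactive PARP domain, rose from 22.4, 20.6 and 21.0 FPKM to 55.6, 55.6 and 57.6 FPKM (1.36, adjusted p = 9.90e-09). Both were separated from Control in every library. Parp16 of the endoplasmic reticulum was called lower (-0.64) at levels near or below 1 FPKM. The tankyrases Tnks (-0.31) and Tnks2 (-0.50), which PARylate axin, were called lower from Control means of 7.73 and 15.1 FPKM. These last 3 calls depend on the scaling, since Parp16 and Tnks were not called after quantile normalization (-0.24 and 0.06) and Tnks and Tnks2 not after upper-quartile scaling (-0.09 and -0.26). Parp4, the PARP of the vault particle, was at 0.21 and Parp6 at -0.11, neither called, but Parp4 was called higher with TPM (0.30), upper-quartile scaling (0.44) and quantile normalization (0.53), and Parp6 with quantile normalization (0.34).

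Of the other deltex genes, Dtx2 was called higher and Dtx3 and Dtx4 lower. Dtx2 went from 1.61, 1.62 and 1.79 FPKM in Control to 4.68, 4.59 and 4.56 FPKM in Model (log2 fold change 1.07, adjusted p = 9.43e-08, limma). Dtx4, a ubiquitin ligase of the same family, went from 21.0, 23.4 and 23.96 FPKM to 6.43, 6.52 and 6.21 FPKM (-1.69, adjusted p = 6.25e-08). Dtx3 fell by 1.48 on the log2 scale, and Dtx1 was not tested, with at most 0.0429 FPKM in any library. Dtx3l was the highest deltex gene in each Model library, whereas Dtx4 was the highest in each Control library.

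Of the enzymes that remove ADP-ribose, 4 of the 5 tested were called lower and 1 higher, where 60.3% of all genes tested were called lower, and 2 of these lower calls were lost after quantile normalization. Adprh, an ADP-ribosyl-arginine hydrolase, rose (log2 fold change 0.95, 21.2 and 41.8 FPKM in Control and Model). Oard1 (-1.51) and Macrod1 (-1.29), macrodomain hydrolases that remove single units, and Adprhl2 (-0.60, adjusted p = 0.0237, limma), which cleaves ADP-ribose from serine, were the largest falls. Adprhl2 overlapped between the groups, and its call was lost without Control replicate 1 (adjusted p = 0.0801), without Control replicate 2 (0.0806) and without Model replicate 2 (0.0843), as well as with upper-quartile scaling (0.130) and quantile normalization (0.371). Parg, the main poly(ADP-ribose) glycohydrolase, was called lower (-0.55) but not after quantile normalization (-0.12).

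Of the readers of ADP-ribose and partners of Parp1, 5 of 7 tested were called lower and 1 higher, near the 60.3% and 16.5% of all genes tested. Hpf1, which directs Parp1 and Parp2 to serine, was at 8.72, 7.82 and 8.51 FPKM in Control and 3.75, 3.72 and 3.71 FPKM in Model (log2 fold change -0.98, adjusted p = 8.51e-07, limma). The macrohistone gene H2afy2 (-0.71), the remodeller Chd1l (-0.70) and the single-strand break repair scaffold Xrcc1 (-0.70) were called lower as well. H2afy2 was at levels near or below 1 FPKM, with means of 1.33 and 0.422 FPKM in Control and Model. Chd1l and Xrcc1 did not pass the fold threshold after quantile normalization (-0.23 and -0.24). Lig3, a DNA ligase, was called lower (-0.32), but not with upper-quartile scaling (-0.13), quantile normalization (0.15) or without Model replicate 3 (-0.26). The other macrohistone gene H2afy was the 1 called higher (0.34).

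Genes of NAD supply and use included the largest rise of the list. Of 13 tested, 5 were called higher and 6 lower, beside 16.5% and 60.3% of all genes tested. Cd38, an enzyme that hydrolyses NAD, went from 0.950, 0.899 and 0.918 FPKM in Control to 89.7, 104 and 97.2 FPKM in Model (log2 fold change 5.67, adjusted p = 1.08e-11, limma). Its relative Bst1 went from 4.89, 4.498 and 5.24 FPKM to 42.9, 49.4 and 48.2 FPKM (3.02, adjusted p = 1.69e-09). Nampt, which makes the NAD precursor NMN from nicotinamide, went from 58.9, 60.1 and 63.2 FPKM to 330, 360 and 371 FPKM (2.52, adjusted p = 3.57e-10). Each of these groups was fully separated. Nmrk1, a nicotinamide riboside kinase, fell by 0.92 on the log2 scale, from 2.07 to 0.616 FPKM. The lower calls of Nadsyn1, Nmnat3, Sirt1 and Sirt2 were lost after quantile normalization, and those of Nadsyn1, Sirt1 and Sirt2 also with upper-quartile scaling. Nadk2 was not called (0.46, adjusted p = 0.143), but was called higher without M+AnxA5 replicate 3 (adjusted p = 0.000456), which shares in the estimate of the spread. It was also called higher in limma with 6 libraries in the fit (adjusted p = 0.00117) and after quantile normalization (0.90, adjusted p = 0.0121).

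The genes of interferon signalling moved in both directions, with 7 of 11 tested called higher and 2 lower, beside 16.5% and 60.3% of all genes tested. Irf1, a transcription factor of the interferon response, was at 13.2, 9.70 and 9.15 FPKM in Control and 99.9, 189 and 198 FPKM in Model (log2 fold change 3.76, adjusted p = 9.30e-07, limma), with Model replicate 1 well below the others. The kinase Jak2 rose by 3.05 on the log2 scale. Ifngr1, the ligand-binding chain of the IFN-γ receptor, fell from 48.9, 51.4 and 45.6 FPKM to 8.13, 9.24 and 7.67 FPKM (-2.41, adjusted p = 4.23e-09). Ifnar1, a chain of the type I interferon receptor, was called lower (-0.28), a call that was lost with TPM (-0.20), upper-quartile scaling (-0.03) and quantile normalization (-0.22), without Control replicate 3 (-0.16) and without Model replicate 3 (-0.26).

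**Figure D4:**
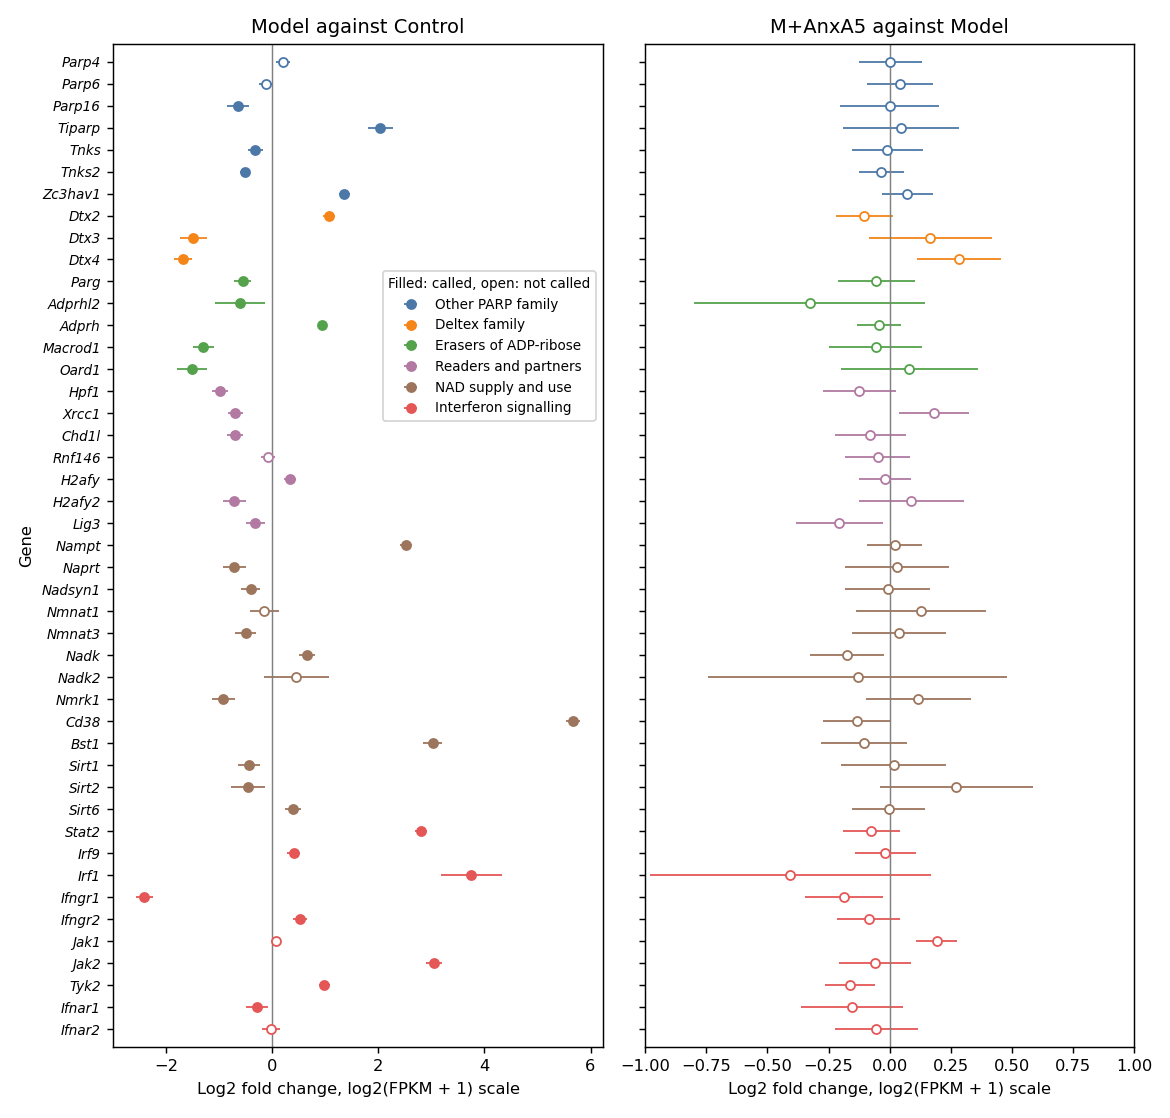
Log2 fold changes with 95% confidence intervals from limma for the tested genes of the wider ADP-ribosylation list that are reported here, coloured by group, for Model against Control (left) and M+AnxA5 against Model (right, on a narrower axis). Filled points were called, open points were not. Cd38 stands farthest to the right at 5.67 and Ifngr1 farthest to the left at -2.41, and every point in the right panel is open.

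With AnxA5, none of the 46 genes was called against Model by limma, where 2.76% of all genes tested were called. An unadjusted p under 0.05 was found for 8 of them (17.4%), beside 17.0% of all genes tested, and the median log2 fold change was -0.03. The following genes were chosen after their values were seen. Jak1 was at 41.0, 41.5 and 42.3 FPKM in Model and 46.2, 48.8 and 48.2 FPKM in M+AnxA5 (log2 fold change 0.19, adjusted p = 0.0290), a difference past the p threshold but below the fold threshold. Dtx4 was at 6.43, 6.52 and 6.21 FPKM in Model and 7.35, 7.72 and 8.96 FPKM in M+AnxA5 (0.28, adjusted p = 0.0921), which did not pass the test, although the groups did not overlap. Tyk2 was lower with AnxA5, also without overlap (-0.16, adjusted p = 0.0985 in limma). Groups did not overlap in 13 of the 46 genes, beside 24.8% of all genes tested. In the interferon signalling list, 10 of 11 differences were below 0, beside 6544 of 11657 over all genes tested. An unadjusted p under 0.05 was found for 4 of these 11 genes (36.4%), and none was called.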

How the data were processed

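RNA-seq libraries of BMDMs (3 groups of 3, assigned from the sample labels) were analysed from the table that the authors deposited, which holds FPKM per gene and library. According to the study's methods, a sequencing company calculated these values. Tools named in the submitters' processing notes, without a stated role, are StringTie 2.1.6, STAR, cutadapt 1.9, edgeR and DESeq2, and the build is mm10. These steps were not repeated. Libraries were poly(A)-selected, strand-marked and sequenced from both ends.

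Genes reaching 1 FPKM in 3 or more of 9 libraries entered limma 3.58.1 (R 4.3.3) as log2(FPKM + 1). A single linear model held all 9 libraries and the 3 groups, without a block for replicate number, followed by trended empirical Bayes and Benjamini-Hochberg adjustment over all 11657 genes tested. A call needed an adjusted p under 0.05 together with a fold change over 1.2, the thresholds of the study's methods. The steps were run on simulated data for M+AnxA5 against Model only, with independent noise around the Model means. That simulation held no structure shared by replicate number and no shift between Control and Model. Coordinates came from GENCODE M21 and all 10 gene IDs matched. Depth was estimated from the smallest steps between low values, because the deposited FPKM are not counts.

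The members and lists were chosen with earlier results of these data known. All 10 members are named, with the 3 genes most like each, all other PARP and deltex genes, and up to 4 called genes of each further list with the largest change. Not all of them are printed. The values of 1 gene of the interferon signalling list, which the counts include, are not reported here. Cell type markers were checked as lists. Itgam has 2 entries in the table, both counted in the macrophage sum. Alternatives were 2 pseudocounts, 2 filters, 3 scalings, no trend, a fit to 6 libraries, a block for the replicate, 2 other fold thresholds, and leaving out single libraries or the 3 libraries numbered 2. With a library left out, its group shares the spread of all groups.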

Additional observations from a re-analysis of the deposited data

How the results depend on the processing

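The calls of the 10 genes were the same in all 3 comparisons under all 22 alternative settings. In M+AnxA5 against Model, where none was called, the sign of the difference changed under 1 setting for Parp2 and under 4 for Parp9. Counts over other genes moved more. Of the wider ADP-ribosylation list, 22 genes were called lower in Model against Control, but 9 with the stricter filter, 14 with upper-quartile scaling, 10 with quantile normalization and 13 with a fold threshold of 1.5. In M+AnxA5 against Control the count of 21 became 8 with the stricter filter, 12 with quantile normalization and 13 with the fold threshold of 1.5. With no fold threshold, 1 gene of the list was higher in M+AnxA5 against Model. Over all genes, Model against Control gave 1925 higher calls (2946 with quantile normalization) and 7024 lower calls (3049 with the stricter filter, 4209 with quantile normalization, 4589 with the 1.5 threshold). M+AnxA5 against Control gave 1910 higher calls (2903 with quantile normalization) and 7121 lower calls (3132, 4363 and 4674 in the same settings). M+AnxA5 against Model gave 227 higher and 95 lower calls, which became 120 and 47 with no filter, 70 and 9 with the 1.5 threshold, and 8 and 3 without the 3 libraries numbered 2. Leaving out single libraries gave 86 to 242 higher and 35 to 105 lower calls, with 102 and 38 without Model replicate 2, 130 and 57 without Model replicate 3, 113 and 47 without M+AnxA5 replicate 2 and 86 and 35 without M+AnxA5 replicate 3. The cause was not tested, beyond the smaller number of genes or libraries in some settings.

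The replicate numbers are shared between groups, but no source used here says whether equal numbers mean the same mouse or day. Correlations of same-numbered deviations were all positive, between 0.0156 and 0.206. Those of libraries with different numbers lay between -0.232 and 0.0993. Control replicate 3 correlated better with Model replicate 1 (0.0993) than with Model replicate 3 (0.0397). Libraries numbered 2 also held the most ribosomal fragments in each group, so a structure shared by number may exist. With the replicate block no call of the 10 genes changed, and the M+AnxA5 against Model calls over all genes became 138 higher and 47 lower. In promoter windows cut to the 250 bases before the start, the shares with a motif were 2.98% for the ISRE core and 7.02% for the GAS core. Depth limits the levels of genes near 1 FPKM, such as Parp16.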
